A study of Mus musculus with 38 samples.

Results

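Kallikreins (Klk), Serpinb serpins and Spink proteins are the proteases and protease inhibitors of the epidermis that were followed here in tail skin of mice. The members were the genes whose symbol begins with Klk, Serpinb or Spink plus a digit and that reached 1 CPM (a count scaled to library size, per M counts) in at least 3 of the 38 libraries. These were 34 of the 60 genes of those names in a table of 19218 genes. Among the 34 members, 11 were Klk proteases and 23 were inhibitors (18 Serpinb and 5 Spink). Of the genes left out, 25 never reached 1 CPM, and Klk1 reached it in 1 library, at 1.14 CPM. Just inside the rule lay Spink1, with 3 libraries and at most 1.499 CPM, and Serpinb1b, with 8 libraries and at most 2.09 CPM. Serpinb1b reached 1 CPM in 5 vitiligo libraries and in at most 2 of any other group, so it entered mainly through the vitiligo group.

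The study modelled vitiligo in mice, used ABX to deplete their gut microbes, and injected wild type mice with hippuric acid, a metabolite linked to gut microbes, to follow the effect on skin. Bulk RNA was sequenced in 6 groups. The vitiligo_ABX group (6 libraries) had vitiligo induction and ABX, and the vitiligo group (9 libraries) had the induction alone. The no_induction_ABX group (6 libraries) was wild type with ABX, and the no_induction group (9 libraries) was wild type without it. The hippuric_acid group (5 libraries) received hippuric acid intraperitoneally, and the vehicle group (3 libraries) received intraperitoneal vehicle. The strain, the age, the way vitiligo was induced and the make-up of ABX are not given in the sources used here. Nothing says that separate libraries are separate mice, so p-values rest on the spread from library to library, which may be technical.

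Library totals ran from 15.3 to 27.9 M counts. All 8 basal keratinocyte markers and 14 suprabasal and granular keratinocyte markers in the table had a median of 1 CPM or more in all 6 groups, which fits the labelled tissue. Noinduction011, Noinduction012 and Vehicle001 carried Y-linked transcripts (173 to 229 CPM summed), and these libraries with Vitiligo000 and Vitiligo260 carried stomach and intestine transcripts (26.9 to 221 CPM, against at most 15.5 CPM in any other library). Calls of named members that were lost without these libraries are named as such beside the result. In bulk skin, fewer cells of a type and less RNA per cell cannot be told apart.

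In the outer epidermis, kallikreins are secreted serine proteases that cut the corneodesmosome proteins holding dead surface cells together, so that cells are shed. Klk5 is known to activate itself and other kallikreins, Klk7 is a chymotrypsin-like member, and Klk14 is a strong trypsin-like member. Spink5 encodes LEKTI, a secreted inhibitor of these kallikreins, whose loss in people causes Netherton syndrome with overactive proteases and peeling skin. Serpinb proteins are intracellular serpins, most of which trap serine or cysteine proteases inside the cell.

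Measured per length of exon sequence, summed transcripts of the Serpinb and Spink inhibitors outweighed those of the proteases in all 38 libraries. Against the Spink members alone, the kallikrein sum was the larger in every library, with log2 ratios of 1.05 to 2.13. Klk7 made up most of the protease total, at a median of 330 CPM per kb and 55.2% to 66.6% of the summed protease level. Klk5 followed with a median of 52.7 CPM per kb and Klk10 with 41.8, while Klk14, at 0.789 CPM per kb, was the lowest kallikrein. Among the inhibitors, Serpinb5 (maspin, an epithelial serpin without known protease inhibition) was the highest at a median of 196 CPM per kb. Spink5 had a median of 121 and Serpinb12 of 117 CPM per kb. Their median shares of the summed inhibitor level were 23.7%, 14.3% and 14.2%. Serpinb5 was counted as an inhibitor by its family, and it made at least 18.8% of that sum in every library. In VitiligoABX001 the sums were 657 CPM per kb for proteases and 702 for inhibitors. There the inhibitors outweighed the proteases only with Serpinb5 counted.

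The summed protease level had a median of 398 CPM per kb in vitiligo_ABX (range 268 to 657), against 576 in vitiligo (408 to 671). In no_induction_ABX the median was 486 CPM per kb (244 to 562), against 585 in no_induction (464 to 792). The 5 hippuric_acid libraries had 325, 343, 355, 383 and 397 CPM per kb, against 598, 636 and 684 in the 3 vehicle libraries. Only the last pair did not overlap.

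The summed inhibitor level moved in the same direction. It had a median of 675 CPM per kb in vitiligo_ABX (516 to 792), against 934 in vitiligo (800 to 1157). In no_induction_ABX the median was 726 (532 to 819), against 992 in no_induction (775 to 1429). The hippuric_acid libraries had 617, 676, 683, 685 and 730 CPM per kb, against 927, 1240 and 1243 in the vehicle libraries. Every hippuric_acid library lay under every vehicle library. The vitiligo_ABX libraries lay under the vitiligo libraries by a small gap, 792 against 800 CPM per kb, and on unscaled library totals the groups overlapped (up to 804 in vitiligo_ABX, from 791 in vitiligo).

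The balance between the classes was taken as the log2 ratio of the summed levels, with Serpinb5 counted among the inhibitors. Its median was -0.80 in vitiligo_ABX (range -1.01 to -0.10), against -0.84 in vitiligo (-1.01 to -0.46). It was -0.58 in no_induction_ABX (-1.13 to -0.44), against -0.76 in no_induction (-0.95 to -0.52). It was -0.93 in hippuric_acid (-1.07 to -0.79), against -0.86 in vehicle (-0.97 to -0.63). All 6 ranges overlapped. VitiligoABX001, at -0.10, was the library nearest to equal levels, and NoinductionABX006, at -1.13, was the farthest from it. The ratio rests on sums over chosen genes and was not tested, and the order of the ABX medians and their controls turned when mean log2(CPM + 1) over the members was used in place of the sums.

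**Figure D1:**
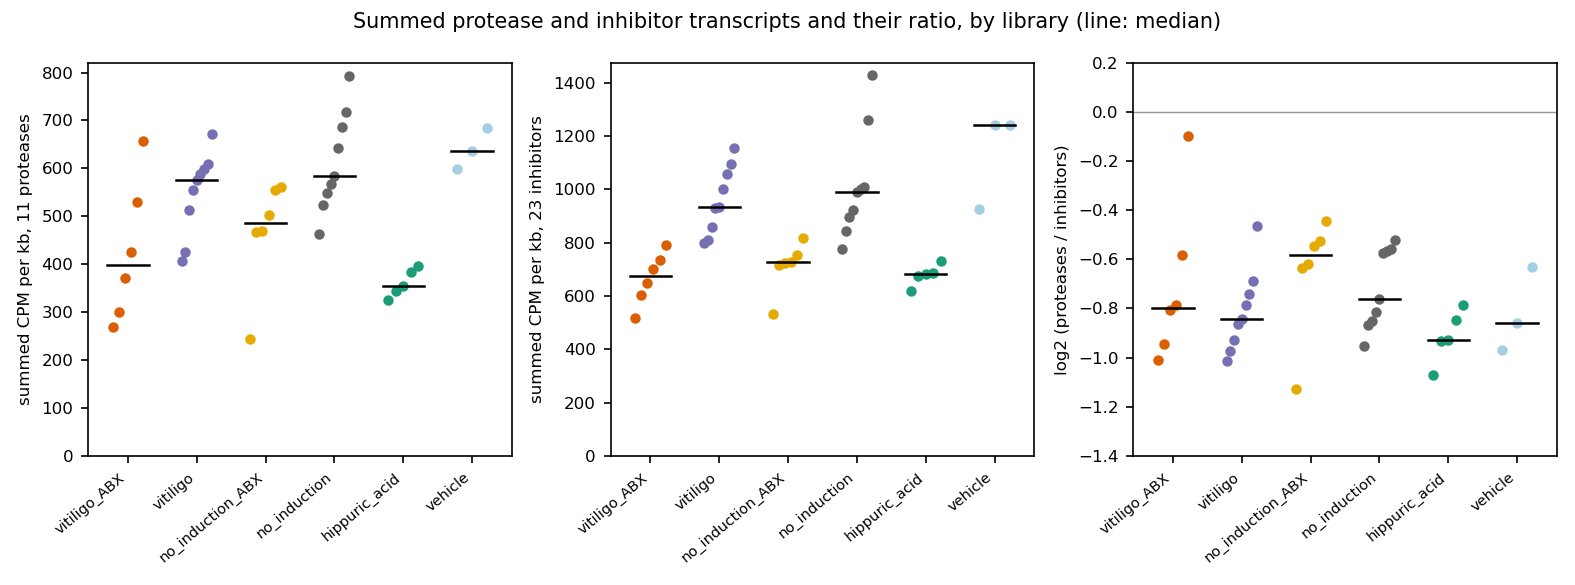
Summed CPM per kb of the 11 proteases (left) and 23 inhibitors (middle) and the log2 ratio of these sums (right), with 1 point per library and a line at the median of each group. Both sums sit lower in vitiligo_ABX, no_induction_ABX and hippuric_acid than in vitiligo, no_induction and vehicle, while the ratios overlap in all 6 groups.

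In vitiligo_ABX against vitiligo, members of both classes were lower. Differences were tested with edgeR's quasi-likelihood F test, and a gene was called at a Benjamini-Hochberg adjusted p under 0.05 over all genes tested, of which 13.1% were called (5.06% higher and 8.05% lower). Of the 34 members, 17 were called, 1 higher and 16 lower. The lower ones were 5 kallikreins (Klk5, Klk8, Klk9, Klk11 and Klk12), 10 Serpinb genes and Spink5. The median log2 fold change was -0.69 over the proteases and -0.54 over the inhibitors, against 0.02 over all genes tested.

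Klk5 had 35.7 to 69.5 CPM in vitiligo_ABX (median 41.9), against 58.7 to 105 CPM in vitiligo (median 93.5). The ranges overlapped, but the 4 lowest vitiligo_ABX libraries lay under every vitiligo library. Klk5 fell by 0.81 on the log2 scale (SE 0.16, adjusted p = 0.0032 by edgeR). Klk11, a kallikrein found in epidermis and hair follicle, had 10.4 to 25.1 CPM in vitiligo_ABX (median 14.5), against 20.3 to 55.5 CPM in vitiligo (median 32.8). Its log2 fold change was -1.06 (SE 0.23, adjusted p = 0.0068 by edgeR). Klk7, the most abundant protease, did not pass, with 295 to 712 CPM in vitiligo_ABX (median 460) against 494 to 805 CPM in vitiligo (median 666) and a log2 fold change of -0.44 (SE 0.18, adjusted p = 0.11 by edgeR).

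Klk15 was the exception among the proteases. It is a trypsin-like kallikrein at one end of the members' cluster, and it had 6.97 to 13.5 CPM in vitiligo_ABX (median 8.34), against 1.07 to 5.48 CPM in vitiligo (median 3.84). All 6 vitiligo_ABX libraries lay above all 9 vitiligo libraries. Klk15 rose by a log2 fold change of 1.60 (SE 0.31, adjusted p = 0.0031 by edgeR). It differed by 0.17 (SE 0.35) in no_induction_ABX against no_induction and by 0.88 (SE 0.40) in hippuric_acid against vehicle, and neither passed. In vitiligo against no_induction, where no_induction had a median of 6.17 CPM, Klk15 was at -0.95 (SE 0.30, adjusted p = 0.057 by edgeR). Klk6 and Klk10, of the same cluster, had positive log2 fold changes of 0.75 (SE 0.25) and 0.71 (SE 0.28) that did not pass, with adjusted p of 0.057 and 0.096 by edgeR. Klk6 is a kallikrein known from the nervous system and skin, and Klk10 is a member with weak protease activity.

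Among the inhibitors, Serpinb7 had 28.48 to 71.9 CPM in vitiligo_ABX (median 43.5), against 76.3 to 137 CPM in vitiligo (median 109). No vitiligo_ABX library reached the lowest vitiligo library. Loss of human SERPINB7 causes a palmoplantar keratosis, and the mouse gene fell by 1.19 on the log2 scale here (SE 0.20, adjusted p = 0.00095 by edgeR). Serpinb12, an inhibitor of trypsin-like proteases, had 124 to 233 CPM in vitiligo_ABX (median 195), against 230 to 492.6 CPM in vitiligo (median 350), with a log2 fold change of -0.95 (SE 0.19, adjusted p = 0.0033 by edgeR). The groups overlapped only where VitiligoABX001 (232.67 CPM) and VitiligoABX002 (230.45 CPM) lay just above Vitiligo063 (230.32 CPM). Serpinb3d, whose human relative SERPINB3 inhibits cysteine proteases, fell by 1.25 (SE 0.30, adjusted p = 0.011 by edgeR). Spink5 had 189 to 577 CPM in vitiligo_ABX (median 448), against 496 to 771 CPM in vitiligo (median 689), and fell by 0.57 (SE 0.18, adjusted p = 0.044 by edgeR). Serpinb2, an inhibitor of plasminogen activators also called PAI-2, fell by 0.54 (SE 0.15, adjusted p = 0.023 by edgeR).

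Part of this count rested on single libraries. Without Vitiligo000 and Vitiligo260, which carry stomach and intestine transcripts, 8 members were called, all of them among the 17. They were Klk15, Klk5, Klk11, Serpinb7, Serpinb12, Serpinb3d, Serpinb13 and Serpinb2, while Spink5, Serpinb5, Serpinb8, Serpinb11, Serpinb3a, Klk8, Klk9 and Klk12 were not. The count was 9 without Vitiligo261, VitiligoABX004 or VitiligoABX005, 10 without Vitiligo260 and 11 without VitiligoABX006. Klk15, Klk5, Klk11, Serpinb7, Serpinb12 and Serpinb3d passed in each of the 15 fits that left out 1 library. Spink5 lost its call in 10 of these 15 fits, with an adjusted p of up to 0.083 by edgeR without VitiligoABX001, and Serpinb2 lost it without VitiligoABX005.

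In no_induction_ABX against no_induction, where 31.1% of all genes tested were called (15.4% higher and 15.8% lower), 17 of 34 members were called, 2 higher and 15 lower. The lower ones were 6 kallikreins (Klk8, Klk9, Klk11, Klk12, Klk13 and Klk14), 8 Serpinb genes and Spink12. The median log2 fold change was -0.73 over the proteases and -0.56 over the inhibitors, against 0.00 over all genes tested. These libraries are not shared with vitiligo_ABX against vitiligo.

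Klk11 had 11.6 to 19.8 CPM in no_induction_ABX (median 17.3), against 25.7 to 59.4 CPM in no_induction (median 35.6), and no pair of libraries overlapped. It fell by 1.13 on the log2 scale (SE 0.18, adjusted p = 0.00033 by edgeR). Klk13 had 2.66 to 5.51 CPM in no_induction_ABX (median 5.04), against 6.36 to 31.1 CPM in no_induction (median 11.7), again without overlap. Its log2 fold change was -1.74 (SE 0.34, adjusted p = 0.0014 by edgeR), and -1.31 without Noinduction011 and Noinduction012. Klk9 fell by 0.99 (SE 0.19, adjusted p = 0.0012 by edgeR) and Klk8, also called neuropsin, by 0.73 (SE 0.20, adjusted p = 0.012 by edgeR). Klk14 had a log2 fold change of -1.19 (SE 0.38, adjusted p = 0.026 by edgeR) at levels of at most 1.14 CPM in no_induction_ABX and 1.97 CPM in no_induction, and it did not pass without Noinduction011 and Noinduction012, nor in the fits that left out NoinductionABX002, NoinductionABX004 or NoinductionABX005. Klk5 and Klk7 did not pass, with log2 fold changes of -0.30 (SE 0.16) and -0.40 (SE 0.15).

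Serpinb13 showed the smallest adjusted p of any member in this comparison. The human protein, headpin, is an inhibitor of lysosomal cathepsins. It had 11.6 to 22.6 CPM in no_induction_ABX (median 17.1), against 43.9 to 74.2 CPM in no_induction (median 60.2). The highest no_induction_ABX library lay far under the lowest no_induction library, and the log2 fold change was -1.89 (SE 0.15, adjusted p = 1.1e-06 by edgeR). Serpinb5 had 412 to 492 CPM in no_induction_ABX (median 453), against 519 to 784 CPM in no_induction (median 659). It fell by 0.56 (SE 0.10, adjusted p = 0.00046 by edgeR), with no overlap. Serpinb8, whose human form inhibits the convertase furin, fell by 0.49 (SE 0.09, adjusted p = 0.00049 by edgeR).

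The 2 inhibitors that rose were copies of Serpinb1, whose human form inhibits neutrophil elastase and cathepsin G. Serpinb1a had 72.8 to 117 CPM in no_induction_ABX (median 83.1), against 39.3 to 94.8 CPM in no_induction (median 53.2), with a log2 fold change of 0.66 (SE 0.17, adjusted p = 0.0080 by edgeR). Only Noinduction005 reached the range of the ABX libraries. Serpinb1c had a log2 fold change of 0.71 (SE 0.25, adjusted p = 0.039 by edgeR) and did not pass without Noinduction011 and Noinduction012, nor in 9 of 15 fits that left out 1 library. Spink12, one of the lower inhibitors at a log2 fold change of -0.83 and an adjusted p of 0.0485 by edgeR, lost its call in 11 of these 15 fits. Without Noinduction011 and Noinduction012 it was -0.55 and did not pass. The deposited counts of Serpinb1a were not all whole numbers, which happens where reads are split between near-identical copies, so its level is uncertain. Likewise uncertain are Serpinb1b, Serpinb3a, Serpinb6a and Serpinb6c. Markers of neutrophils, which are cells rich in the proteases Serpinb1 inhibits, summed to 6.53 to 31.6 CPM in no_induction_ABX and 17.9 to 125 CPM in no_induction.

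In hippuric_acid against vehicle, 13.8% of all genes tested were called (5.48% higher and 8.29% lower). Of 33 members tested, 13 were called, and all were lower: Klk5, Klk7, Klk8, Klk9 and Klk11, Spink5, and Serpinb3a, Serpinb5, Serpinb7, Serpinb8, Serpinb11, Serpinb12 and Serpinb13. The median log2 fold change was -0.99 over the proteases and -0.60 over the inhibitors, against 0.02 over all genes tested.

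Klk7 had 340, 368, 385, 415 and 415 CPM in hippuric_acid, against 695, 728 and 778 CPM in vehicle. Klk5 had 43.1, 48.9, 49.96, 55.4 and 58.0 CPM in hippuric_acid, against 94.7, 95.8 and 114 CPM in vehicle. Klk11 had 17.4, 17.4, 18.2, 19.1 and 21.1 CPM in hippuric_acid, against 36.1, 43.0 and 53.4 CPM in vehicle. In these kallikreins every hippuric_acid library lay under every vehicle library, though Klk11 spread from 36.1 to 53.4 CPM within vehicle. The log2 fold changes were -0.93 for Klk7 (SE 0.11, adjusted p = 0.00098 by edgeR), -0.99 for Klk5 (SE 0.11, adjusted p = 0.00092) and -1.25 for Klk11 (SE 0.13, adjusted p = 0.00066). Klk9 fell by 0.99 (SE 0.16, adjusted p = 0.0031 by edgeR). Klk8 fell by 1.00 (SE 0.23, adjusted p = 0.021 by edgeR), and by 0.50 without Vehicle001, where it stood at 121 CPM against 52.8 and 59.2 CPM in the other vehicle libraries.

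Serpinb7 had 39.98, 42.3, 47.5, 49.2 and 66.2 CPM in hippuric_acid, against 118, 137 and 164 CPM in vehicle. Serpinb12 had 146, 174, 178, 190 and 200 CPM in hippuric_acid, against 350, 467 and 689 CPM in vehicle. Spink5 had 412, 449, 496, 499 and 566 CPM in hippuric_acid, against 604, 792 and 978 CPM in vehicle. All 3 inhibitors were lower in every hippuric_acid library than in any vehicle library. Serpinb7 fell by 1.51 (SE 0.16, adjusted p = 0.00066 by edgeR), Serpinb12 by 1.498 (SE 0.19, adjusted p = 0.0012) and Spink5, the LEKTI gene, by 0.71 (SE 0.16, adjusted p = 0.016). Without Vehicle002, Spink5 did not pass, with an adjusted p of 0.053 by edgeR. Serpinb3a, which fell by 1.196 (SE 0.25), fell by 0.71 without Vehicle001 and still passed. Leaving out Vehicle001, the vehicle library with Y-linked and gut transcripts, gave 17 called members, and the other vehicle libraries then numbered 2.

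The 2 comparisons of induction with no induction showed little change in these families. In vitiligo against no_induction, 7.74% of all genes tested were called (5.27% higher and 2.47% lower), and 1 of 34 members was, Serpinb6e. The median log2 fold change was -0.29 over the proteases and -0.06 over the inhibitors, against 0.01 over all genes tested. In vitiligo_ABX against no_induction_ABX, 4.97% of all genes tested were called (3.72% higher and 1.25% lower), and 1 of 32 members tested was, again Serpinb6e. Klk7, for example, had 494 to 805 CPM in vitiligo (median 666), against 559 to 885 CPM in no_induction (median 729), a log2 fold change of -0.13 (SE 0.11, adjusted p = 0.48 by edgeR). Spink5 differed by 0.04 (SE 0.13) in the same comparison.

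Serpinb6e, a mouse copy of the Serpinb6 group, had 18.8 to 63.8 CPM in vitiligo_ABX (median 41.2), against 5.45 to 9.43 CPM in no_induction_ABX (median 7.13). Every vitiligo_ABX library lay above every no_induction_ABX library, and the log2 fold change was 2.59 (SE 0.27, adjusted p = 0.0013 by edgeR). Without the ABX, Serpinb6e had 23.7 to 77.3 CPM in vitiligo (median 41.2), against 1.88 to 28.2 CPM in no_induction (median 22.6), a log2 fold change of 1.24 (SE 0.37, adjusted p = 0.044 by edgeR). The second difference was fragile. It passed in 5 of the 18 fits that left out 1 library (those without Vitiligo001, Vitiligo039, Vitiligo047, Vitiligo261 or Noinduction012), its largest adjusted p was 0.080 without Vitiligo260, and it was 0.86 and did not pass without the libraries carrying stomach and intestine transcripts. The larger difference under ABX passed in all 12 such fits, with log2 fold changes of 2.42 to 2.73. In no_induction_ABX against no_induction Serpinb6e fell by 1.39 (SE 0.44, adjusted p = 0.027 by edgeR), a call lost without NoinductionABX001 or NoinductionABX003. It did not differ beyond its error in vitiligo_ABX against vitiligo, at -0.04 (SE 0.29).

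**Figure D2:**
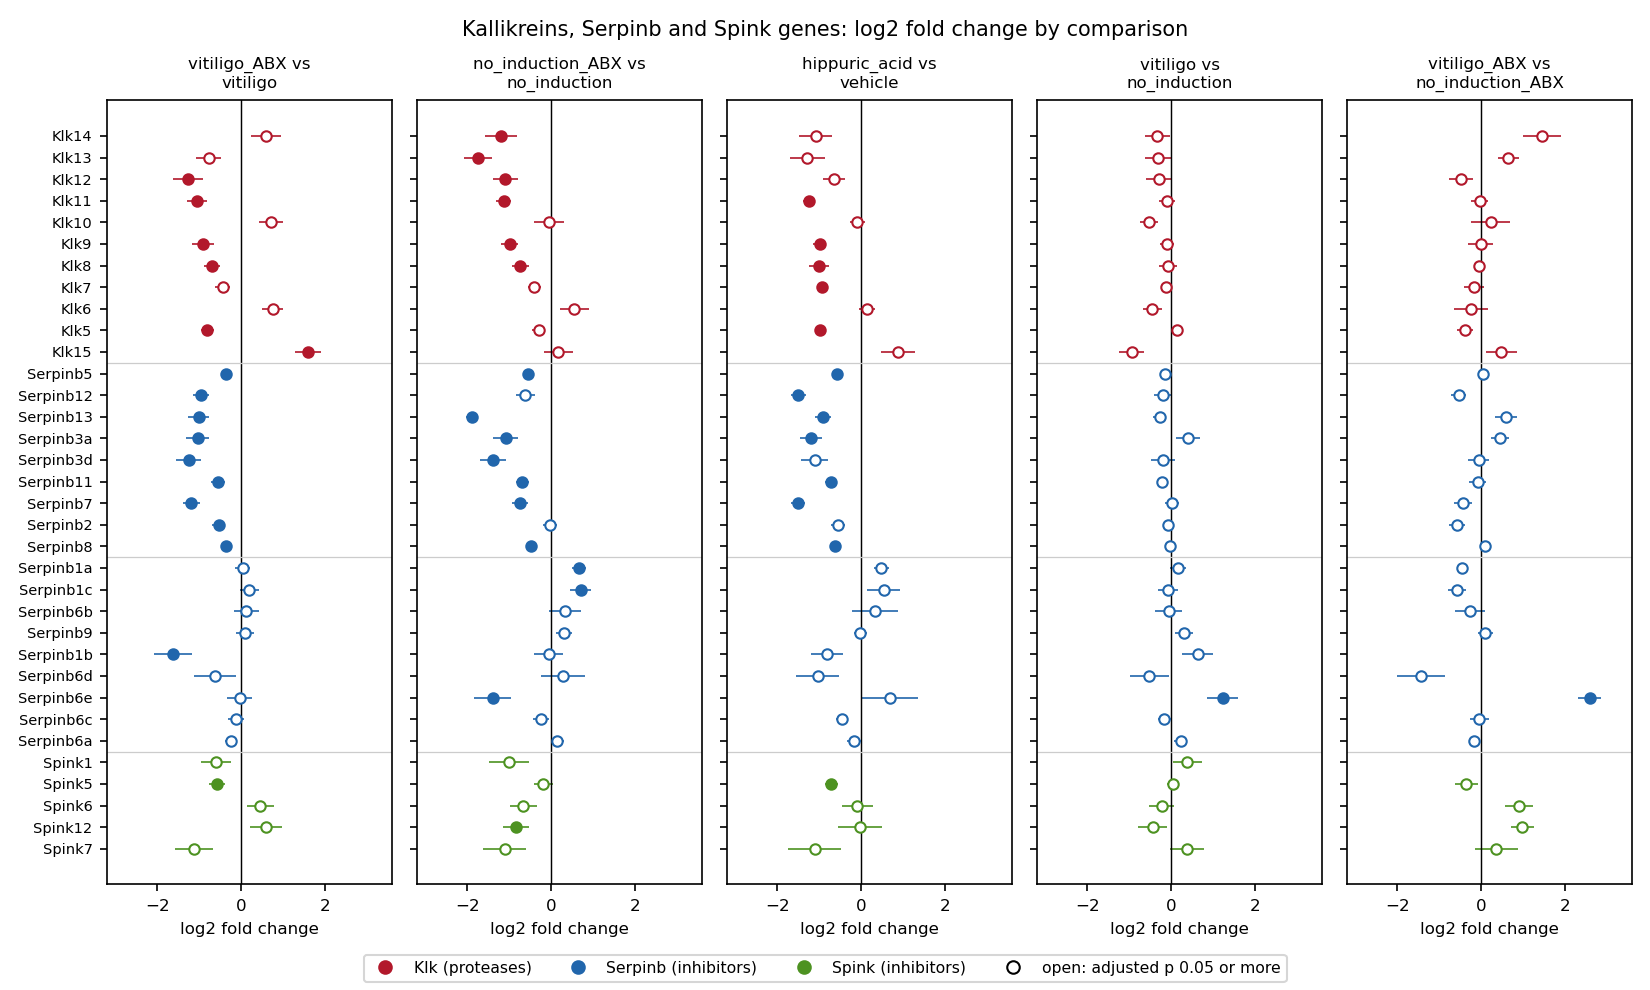
Log2 fold change of each member with its SE (bars) in the 5 comparisons of 2 groups, with kallikreins at the top, then Serpinb genes of chromosome 1 and of chromosome 13, then Spink genes. Filled points have an adjusted p under 0.05 by edgeR; in the 3 panels on the left most filled points lie under 0, and in the 2 on the right Serpinb6e is the only filled point.

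Whether ABX acted differently with and without induction was tested as an interaction, the change in vitiligo_ABX against vitiligo minus that in no_induction_ABX against no_induction. Of all genes tested 11.5% were called (6.68% higher and 4.77% lower), and 1 of 34 members was. That member was Klk14, with 0.772 to 2.68 CPM in vitiligo_ABX (median 1.27) and 0.268 to 1.45 CPM in vitiligo (median 1.07). It had 0.0985 to 1.14 CPM in no_induction_ABX (median 0.475) and 0.570 to 1.97 CPM in no_induction (median 1.21). The interaction was 1.78 on the log2 scale (SE 0.55, adjusted p = 0.032 by edgeR). The call was lost in 7 of 30 fits that left out 1 library (Noinduction021, VitiligoABX001, VitiligoABX002, VitiligoABX003, NoinductionABX002, NoinductionABX004 or NoinductionABX005), with an adjusted p of up to 0.070, and it was 1.62 and not called without Noinduction011 and Noinduction012. Hair shaft and inner root sheath markers moved with it, since all 17 tested were lower in no_induction_ABX against no_induction and 16 of 17 were called in the interaction. Their summed level was 14542 to 26595 CPM in vitiligo_ABX, 9647 to 20768 in vitiligo, 3157 to 10851 in no_induction_ABX and 12625 to 28342 in no_induction, and their part in the Klk14 result was not tested.

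**Figure D3:**
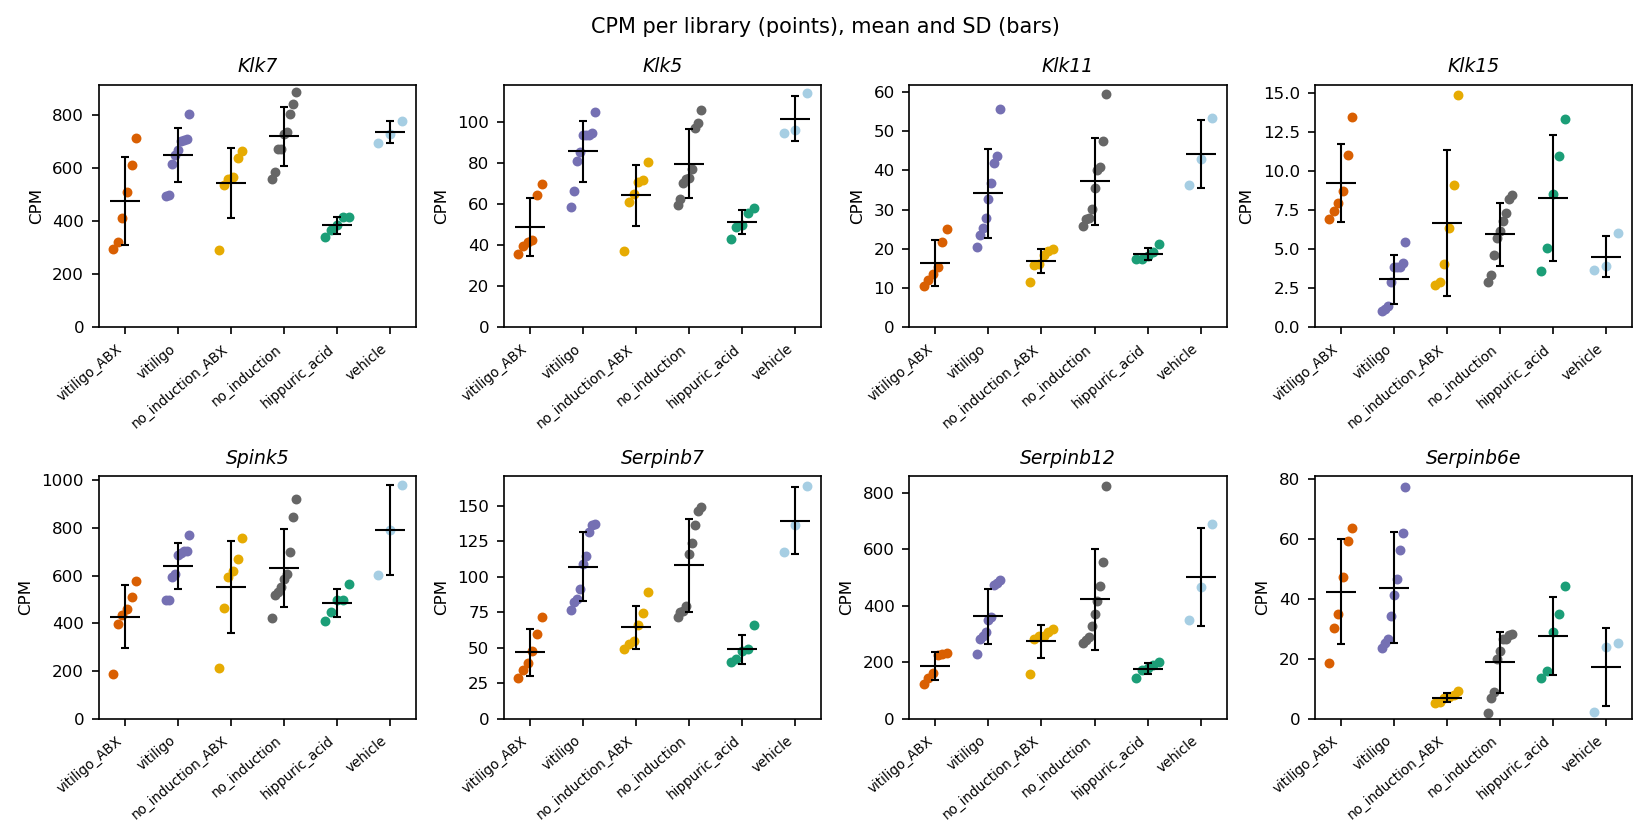
CPM of 4 proteases (Klk7, Klk5, Klk11 and Klk15) and 4 inhibitors (Spink5, Serpinb7, Serpinb12 and Serpinb6e) in each library, with the mean and SD of each group as black bars. Klk11 and Serpinb7 are lower in vitiligo_ABX, no_induction_ABX and hippuric_acid, Klk15 is higher in vitiligo_ABX than in vitiligo, and Serpinb6e is lowest in no_induction_ABX.

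The 3 comparisons with ABX or hippuric acid share no library. Of 33 members tested in all 3, 9 were lower in each (27.3%), against 2.34% of the 13842 genes tested in all 3. They were the proteases Klk8, Klk9 and Klk11 and the inhibitors Serpinb3a, Serpinb5, Serpinb7, Serpinb8, Serpinb11 and Serpinb13. A further 5 members were lower in 2 of the comparisons (Klk5, Klk12, Spink5, Serpinb12 and Serpinb3d) and 7 in 1 of them. The remaining 13 were lower in none, among them Klk6, Klk10 and Klk15 of the proteases. Without Vitiligo000 and Vitiligo260, 3 of the 9 (Klk11, Serpinb7 and Serpinb13) still passed in vitiligo_ABX against vitiligo. Serpinb9, an inhibitor of the lymphocyte protease granzyme B, was one of the 13 lower in none, with log2 fold changes of 0.10 (SE 0.21) in vitiligo_ABX against vitiligo, 0.31 (SE 0.20) in no_induction_ABX against no_induction and -0.02 (SE 0.16) in hippuric_acid against vehicle.

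Most of the lower Serpinb genes sat in 1 of the 2 mouse Serpinb clusters. By GENCODE M21, 9 Serpinb members lie on chromosome 1 (Serpinb5, Serpinb12, Serpinb13, Serpinb3a, Serpinb3d, Serpinb11, Serpinb7, Serpinb2 and Serpinb8, in that order) and 9 on chromosome 13 (the Serpinb1 and Serpinb6 copies and Serpinb9). On chromosome 1, 9 of 9 were lower in vitiligo_ABX against vitiligo. In no_induction_ABX against no_induction 7 of 9 were lower, and in hippuric_acid against vehicle also 7 of 9. Of all genes tested, 8.05%, 15.8% and 8.29% were lower in that order, and 5.06%, 15.4% and 5.48% were higher. The chromosome 1 median log2 fold changes were -0.95, -0.69 and -0.92. On chromosome 13, 1 of 9 was lower in vitiligo_ABX against vitiligo (Serpinb1b, whose call was lost without VitiligoABX002 or VitiligoABX004), 1 was lower (Serpinb6e) and 2 were higher in no_induction_ABX against no_induction, and 0 were called in hippuric_acid against vehicle. Without Vitiligo000 and Vitiligo260, 5 of the 9 on chromosome 1 were lower in vitiligo_ABX against vitiligo. The chromosome 13 medians were -0.04, 0.28 and -0.02. The split by chromosome was noticed in the fold changes and is a description. The kallikreins lie together on chromosome 7. Of those lower in none of the 3 comparisons, Klk10 and Klk6 stood between lower ones, and Klk15 stood at one end.

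**Figure D4:**
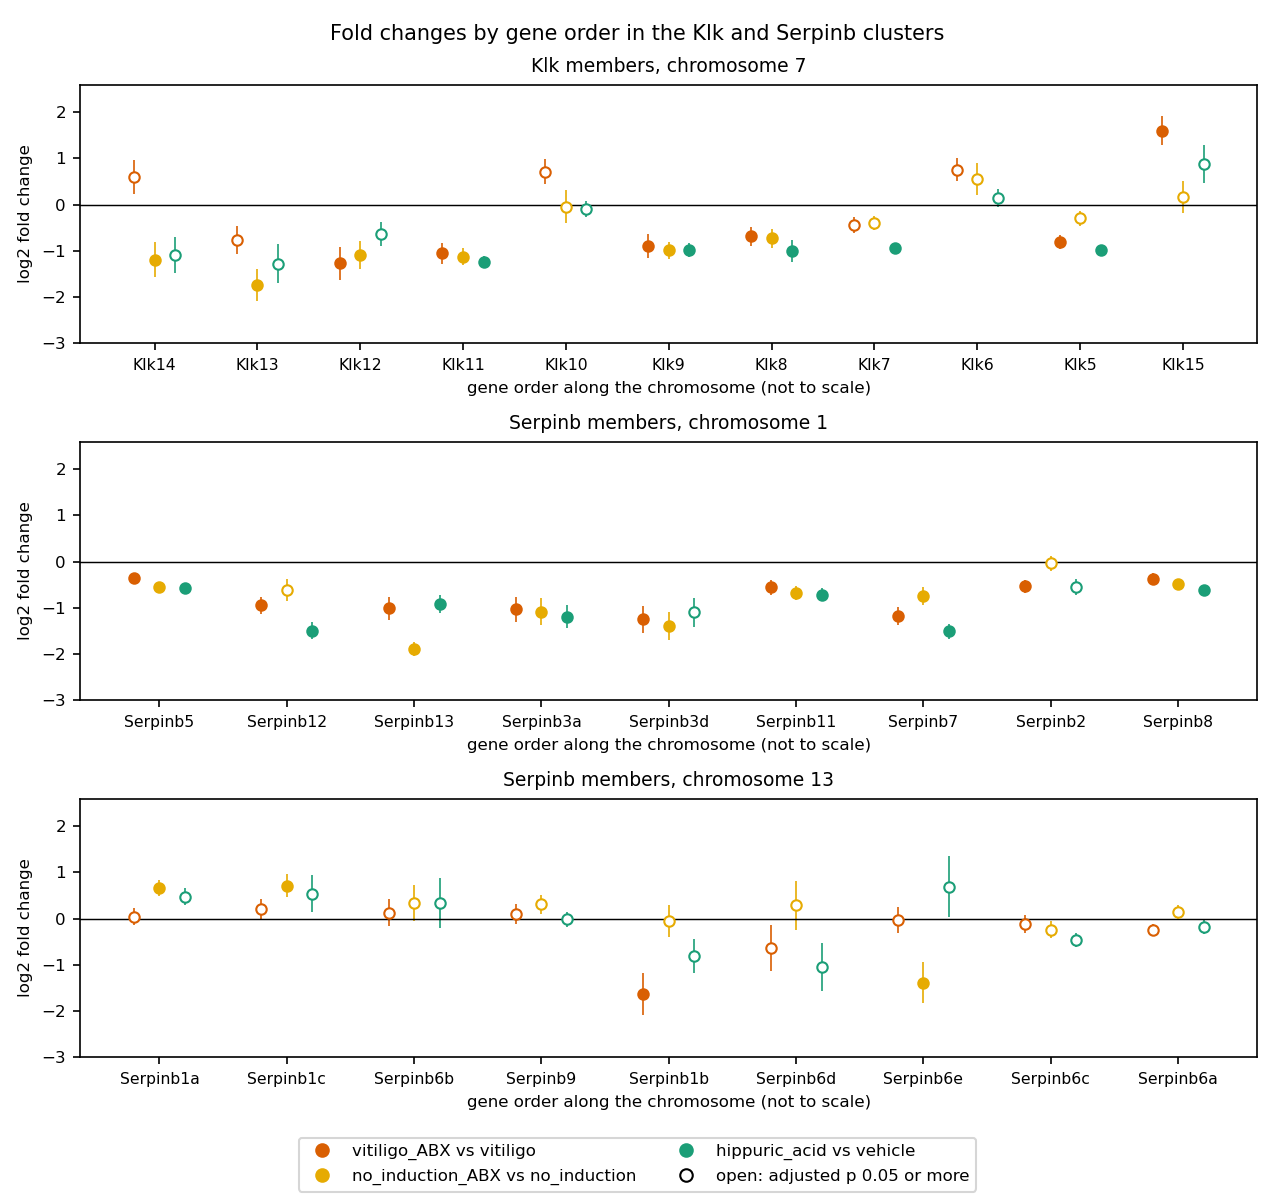
Log2 fold change with SE (bars) of the Klk members on chromosome 7 and the Serpinb members on chromosomes 1 and 13, in gene order and not to scale, for vitiligo_ABX against vitiligo, no_induction_ABX against no_induction and hippuric_acid against vehicle. Filled points have an adjusted p under 0.05 by edgeR; all points of the chromosome 1 cluster lie under 0, while those of chromosome 13 fall on both sides.

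Promoter sequences were compared because members of the chromosome 1 cluster were lower together. RefSeq windows of GRCm38.p6 ran from 250 bases before to 50 after a start site. They were used for 27 of the 34 members, none of them a Spink gene. In these windows 8 motifs were searched on both strands after the expression results were known. The AP-1 motif TGANTCA, the binding site of Jun and Fos factors that act in keratinocyte differentiation, was present in the window of 6 of 8 chromosome 1 Serpinb members with a window (Serpinb2, Serpinb5, Serpinb7, Serpinb8, Serpinb11 and Serpinb12), in 0 of 8 on chromosome 13 and in 0 of 11 kallikreins. Of all 32851 promoter windows 7.81% held it. The other motifs, given with their share of all windows, were AACNNGTT (GRHL, 4.20%), TTCNNNGAA (STAT, 8.30%), GGAAG (ETS, 71.4%), TTNNGNAA (C/EBP, 40.7%), TATAAA (core promoter box, 13.6%), GGGNGTGG (KLF, 17.6%) and the palindromic glucocorticoid receptor motif (0.475%). They were found in the windows of 0, 3, 22, 17, 8, 4 and 0 of the 27 members in that order. TATAAA too was found mostly on chromosome 1, in 5 of 8 Serpinb members there, 2 of 8 on chromosome 13 and 1 of 11 kallikreins. For the C/EBP motif these counts were 6 of 8, 6 of 8 and 5 of 11. A member counted if any of its windows matched, whereas the shares count single windows. All 6 members with an AP-1 match were lower in vitiligo_ABX against vitiligo. So were all 9 Serpinb members of chromosome 1, so this does not set members with a match apart. Serpinb5, Serpinb8 and Serpinb11 were not called there without Vitiligo000 and Vitiligo260. Serpinb3a and Serpinb3d were lower in ABX comparisons and had no AP-1 match, and Klk11 was lower in all 3 comparisons with none, so a lower level was also seen without a match. Matches are letters in a window and not shown binding sites.

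The windows of Serpinb7, Serpinb12 and Serpinb5 are printed as members with a match (AP-1 letters in capitals), those of Klk11 as a lower protease without one and that of Serpinb6e as a member of the chromosome 13 cluster without one. In Serpinb7 the match starts 45 bases before the start site, in Serpinb12 also 45 and in Serpinb5 140.
Serpinb7 promoter, chr1:107422439-107422738 (+ strand): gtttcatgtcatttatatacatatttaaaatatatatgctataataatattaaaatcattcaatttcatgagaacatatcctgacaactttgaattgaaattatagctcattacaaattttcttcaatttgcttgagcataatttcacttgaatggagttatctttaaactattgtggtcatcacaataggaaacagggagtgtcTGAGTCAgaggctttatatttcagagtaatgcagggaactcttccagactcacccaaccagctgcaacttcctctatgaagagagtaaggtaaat
Serpinb12 promoter, chr1:106934199-106934498 (+ strand): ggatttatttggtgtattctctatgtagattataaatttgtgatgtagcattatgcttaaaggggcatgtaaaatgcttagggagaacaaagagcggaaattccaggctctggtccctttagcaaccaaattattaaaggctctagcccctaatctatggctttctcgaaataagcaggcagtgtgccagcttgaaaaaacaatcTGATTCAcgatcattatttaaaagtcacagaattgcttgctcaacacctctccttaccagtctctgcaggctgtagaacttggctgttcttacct
Serpinb5 promoter, chr1:106860925-106861224 (+ strand): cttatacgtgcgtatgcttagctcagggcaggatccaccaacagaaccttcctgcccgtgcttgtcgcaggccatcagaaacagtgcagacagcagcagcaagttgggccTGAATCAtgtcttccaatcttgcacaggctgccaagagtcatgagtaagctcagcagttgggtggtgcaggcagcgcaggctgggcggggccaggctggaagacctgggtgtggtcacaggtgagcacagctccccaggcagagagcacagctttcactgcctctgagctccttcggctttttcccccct
Klk11 promoter, chr7:43774367-43774666 (+ strand): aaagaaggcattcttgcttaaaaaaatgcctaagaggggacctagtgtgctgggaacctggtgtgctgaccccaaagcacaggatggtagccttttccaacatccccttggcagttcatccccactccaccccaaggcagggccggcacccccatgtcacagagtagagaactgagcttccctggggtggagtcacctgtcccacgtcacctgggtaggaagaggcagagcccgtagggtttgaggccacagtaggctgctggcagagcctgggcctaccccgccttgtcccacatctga
Klk11 promoter, chr7:43776079-43776378 (+ strand): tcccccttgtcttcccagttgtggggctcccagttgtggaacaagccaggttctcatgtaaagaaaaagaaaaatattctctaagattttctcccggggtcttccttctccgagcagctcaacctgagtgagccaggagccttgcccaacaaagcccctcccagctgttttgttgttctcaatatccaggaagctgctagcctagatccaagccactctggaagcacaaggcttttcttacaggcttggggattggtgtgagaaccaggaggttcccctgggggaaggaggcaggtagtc
Serpinb6e promoter, chr13:33843359-33843658 (- strand): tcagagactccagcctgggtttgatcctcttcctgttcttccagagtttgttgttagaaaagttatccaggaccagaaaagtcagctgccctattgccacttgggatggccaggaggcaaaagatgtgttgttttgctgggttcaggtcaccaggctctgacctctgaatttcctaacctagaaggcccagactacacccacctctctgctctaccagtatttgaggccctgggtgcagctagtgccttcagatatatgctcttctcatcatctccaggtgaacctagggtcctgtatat

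For the other members with a match, the 41 bases around 1 match are printed, again with the motif in capitals. Serpinb8 and Serpinb11 each hold 2 matches, and the one shown lies nearest to the upstream end of the window.
Serpinb8 stretch, chr1:107589966-107590006 (+ strand): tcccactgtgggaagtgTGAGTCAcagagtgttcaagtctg
Serpinb11 stretch, chr1:107362116-107362156 (+ strand): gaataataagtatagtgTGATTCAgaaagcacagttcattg
Serpinb2 stretch, chr1:107511312-107511352 (+ strand): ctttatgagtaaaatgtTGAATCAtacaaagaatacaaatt

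Other proteases and inhibitors of skin, were taken from lists of known genes. Of 31 other inhibitor genes 23 were tested in each of the 3 ABX and hippuric acid comparisons, and 0 were higher and 8 lower in vitiligo_ABX against vitiligo, 2 higher and 9 lower in no_induction_ABX against no_induction, and 1 higher and 8 lower in hippuric_acid against vehicle. The lower ones were 34.8%, 39.1% and 34.8% of those tested in that order, against 8.05%, 15.8% and 8.29% of all genes. Wfdc5, Wfdc18 and Wfdc21, secreted whey acidic protein domain genes, were lower in all 3. Wfdc18 had log2 fold changes of -1.73 in vitiligo_ABX, -1.90 in no_induction_ABX and -1.68 in hippuric_acid against their controls. Serpina12, also known as vaspin and an inhibitor of Klk7, was lower as well, at -1.09, -0.84 and -1.28. Timp3, an inhibitor of metalloproteases, was higher in no_induction_ABX (0.76) and hippuric_acid (0.81).

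Of 29 other skin proteases, 1 was higher and 2 were lower of 27 tested in vitiligo_ABX against vitiligo. In no_induction_ABX against no_induction 3 were higher and 8 lower of 26 tested, and in hippuric_acid against vehicle 2 were higher and 8 lower of 27. Called in either direction were 11.1%, 42.3% and 37.0% of those tested in that order, against 13.1%, 31.1% and 13.8% of all genes. The share in vitiligo_ABX against vitiligo was thus near that of all genes. The lower ones alone made 7.41%, 30.8% and 29.6%, against 8.05%, 15.8% and 8.29% of all genes. Tmprss4, a membrane serine protease, was lower in all 3, at -0.70, -0.51 and -1.32. Prss8 (prostasin) was lower in no_induction_ABX (-0.59) and hippuric_acid (-0.64), as was Casp14 (-0.51 and -1.30), a caspase of cornifying cells. Plat, tissue plasminogen activator, was higher in all 3 (0.55, 0.54 and 0.69).

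Of 20 substrates of the cascade and its receptor, 3 were higher and 2 lower of 17 tested in vitiligo_ABX against vitiligo, 0 and 5 in no_induction_ABX against no_induction, and 0 and 9 in hippuric_acid against vehicle. Called in either direction were 29.4%, 29.4% and 52.9% of those tested in that order, against the same 13.1%, 31.1% and 13.8% of all genes. By that measure the share in no_induction_ABX against no_induction was near that of all genes. The lower ones alone made 11.8%, 29.4% and 52.9%, against 8.05%, 15.8% and 8.29% of all genes. Cdsn, the corneodesmosin that kallikreins cut, was lower in no_induction_ABX (-1.01) and hippuric_acid (-0.75). Dsg1b and Dsc1, desmosomal cadherins, were lower in the same comparisons. F2rl1, the receptor PAR2 that kallikreins activate, was higher in vitiligo_ABX against vitiligo (0.61).

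Markers of suprabasal and granular keratinocytes, layers known to make many of these proteases and inhibitors, moved in the same direction. Of 14 tested, 8 were lower in vitiligo_ABX against vitiligo, 11 in no_induction_ABX against no_induction and 12 in hippuric_acid against vehicle, and none was higher. These were 57.1%, 78.6% and 85.7%, against 8.05%, 15.8% and 8.29% of all genes tested. The marker list is not separate from those above, as it shares Cdsn, Flg and Flg2 with the substrates and Casp14 with the other proteases. Their summed level was 8491 to 15150 CPM in vitiligo_ABX against 12223 to 25886 CPM in vitiligo. It was 8112 to 15589 CPM in no_induction_ABX against 15121 to 33185 CPM in no_induction, and 8962 to 10646 CPM in hippuric_acid against 20904 to 32863 CPM in vehicle. The highest control values came from Vitiligo000, Noinduction012 and Vehicle001, which carried stomach and intestine transcripts. The medians were 9308 against 19040, 14608 against 21078 and 10369 against 22907 CPM. The marker calls were not taken again without these libraries. Of 8 basal keratinocyte markers, 0, 0 and 3 were lower in the 3 comparisons in that order. Adipocyte markers summed to 323 to 1233 CPM in vitiligo_ABX against 2769 to 7872 CPM in vitiligo, to 200 to 551 CPM in no_induction_ABX against 509 to 2007 CPM in no_induction, and to 277 to 1227 CPM in hippuric_acid against 2321 to 2891 CPM in vehicle. The part of either cell type in the members' results was not tested.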

How the data were processed

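Tail skin RNA of mice was extracted with Trizol, enriched with oligo(dT), built into NEBNext Ultra libraries and sequenced on a NovaSeq, per the labels' protocols. For each gene, the table deposited by the authors holds an estimated count in each of 38 libraries, not scaled to library size. DESeq2, StringTie 1.3.1, HISAT2 and Bowtie2 2.2.8 stand in the submitters' processing notes with no roles. The genome build, the counter and whether strand was used are not given in the sources used here, so reads of overlapping and antisense genes cannot be separated. Of 19220 rows, 1 incomplete and 1 without a symbol were left out. Rounding these deposited expected counts, of which 16.2% of genes held one that was not whole, moved no total by more than 20.1.

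For each pair of groups edgeR 4.0.16 (R 4.3.3) ran its quasi-likelihood F test (TMM factors, default low-count filter, robust fit), two-sided, adjusted by Benjamini-Hochberg over all genes tested. SE came from the F statistic. CPM used TMM-scaled totals of all 38 libraries; CPM per kb used GENCODE M21 exon length, which matched all identifiers. Replicates of a group always differed by more than counting noise (chi-square of at least 7.58 per degree of freedom), so each counted once. Named genes were up to 6 called members per comparison with the smallest p, and 9 fixed members; any other name was picked once its values were known. The alternatives comprised RLE size factors, no filter or a stricter one, DESeq2 1.42.0, limma-voom (limma 3.58.1), a minimum fold of 2, 1 fit over all libraries, library numbers as blocks, and each library left out in turn. Leaving out libraries with Y-linked (10 CPM or more) or stomach and intestine transcripts (over 20 CPM) was added after seeing the data. The fit was tested on simulated data. The members and lists were chosen with earlier results of these data known.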

Additional observations from a re-analysis of the deposited data

Results flagged for a closer look

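Of 125 groups of member values checked for a sample far from the others, 9 were marked, or 7.2%; chance marks about 1 in 20. NoinductionABX006 was low for Klk7 (291 CPM, against 537 to 663 in the other libraries of its group) and for Serpinb12 (158 CPM, against 282 to 317). Serpinb1a was high in Noinduction005 (94.8 CPM, against 39.3 to 63.6) and in NoinductionABX005 (117 CPM, against 72.8 to 87.7). Serpinb3d was high in Vitiligo261 (158 CPM, against 43.9 to 95.7) and in Noinduction012 (216 CPM, against 49.5 to 100). Spink12 was high in Vitiligo001 (52.8 CPM, against 8.02 to 28.7) and in Noinduction011 (67.8 CPM, against 12.03 to 38.8). Klk12 was high in VitiligoABX002 (1.53 CPM, against 0.707 to 0.996). The difference of Klk14 with ABX was not the same in libraries with and without induction, by a log2 value of 1.78 in the test of the interaction. Klk14 reached at most 2.68 CPM in these groups. Its call was lost in 7 of 30 fits that left out 1 library, and without the libraries with Y-linked or stomach and intestine transcripts.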

How the results depend on the processing

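Counts of members called depended on the fit. For vitiligo_ABX against vitiligo (17) the count was 8 at a fold of at least 2, 8 without the libraries with stomach and intestine transcripts and 9 to 19 leaving out 1 library. For no_induction_ABX against no_induction (17) it was 8 at a fold of at least 2 and 14 to 19 leaving out 1 library. For hippuric_acid against vehicle (13) it was 5 at a fold of at least 2 and 12 to 17 leaving out 1 library. For vitiligo against no_induction (1) it was 0 without the low-count filter, 2 with DESeq2, 11 with limma-voom, 2 with all 38 libraries in one fit, 0 without the libraries with stomach and intestine transcripts and 0 to 2 leaving out 1 library. For vitiligo_ABX against no_induction_ABX (1) it was 2 without the filter, 7 with DESeq2, 5 with limma-voom, 3 with all libraries and 1 to 4 leaving out 1 library (4 without VitiligoABX005). For the interaction (1) it was 0 with the stricter filter, 3 with DESeq2, 11 with limma-voom, 3 with all libraries, 2 without either set of libraries and 0 to 6 leaving out 1 library (6 without Vitiligo001). The cause was not tested. The share of all genes called is given for the main fits only, and not for these fits or those with a replicate block. A change in these counts is therefore not shown to be particular to the members.

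Libraries of different groups with the same number had correlations of -0.20 to 0.38 between their deviations from the group means. These were not set against libraries with different numbers, so they cannot tell whether numbers pair samples. With the number as a replicate block, 0 members were called in vitiligo_ABX against vitiligo, which then held 2 pairs, 11 in no_induction_ABX against no_induction, 11 in hippuric_acid against vehicle and 4 in vitiligo_ABX against no_induction_ABX.

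Taken as the mean log2(CPM + 1) over members, the median difference of proteases and inhibitors was -0.56 in vitiligo_ABX and -0.49 in vitiligo, -0.39 in no_induction_ABX and -0.21 in no_induction, and -0.51 in hippuric_acid and -0.38 in vehicle. On that scale both ABX groups lay under their controls, while by the log2 ratio of summed levels both lay above them.

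Signs turned in these results. In vitiligo against no_induction, Klk8 was 0.16 without Y-linked and 0.0706 without stomach and intestine libraries, and Serpinb2 was 0.13 with limma-voom and 0.0483 without stomach and intestine libraries. With the block, Klk14 was -0.10 in vitiligo_ABX against vitiligo (0.60 without it), and in no_induction_ABX against no_induction Spink5 was 0.17 (-0.18 without it) and Spink12, a called member at -0.83 without it, was 0.028. Serpinb2 was 0.23 with limma-voom and 0.0348 without either set of libraries in that comparison. Serpinb5 was -0.0043 with limma-voom in vitiligo_ABX against no_induction_ABX, and Klk8 in the interaction was -0.11 with limma-voom, -0.22 without Y-linked and -0.12 without stomach and intestine libraries. Leaving out 1 library, the range was -0.16 to 0.0547 for Klk8 and -0.0178 to 0.12 for Spink5 in vitiligo against no_induction, and -0.0496 to 0.13 for Serpinb1a in vitiligo_ABX against vitiligo. It was -0.0899 to 0.086 for Serpinb2 in no_induction_ABX against no_induction, -0.19 to 0.0353 for Klk8 and -0.0597 to 0.0963 for Serpinb5 in vitiligo_ABX against no_induction_ABX, and -0.015 to 0.25 for Klk6 in hippuric_acid against vehicle. In the interaction it was -0.15 to 0.35 for Klk6, -0.20 to 0.0478 for Klk7 and -0.12 to 0.12 for Klk8.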
